A study of Mus musculus with 6 samples.

Results

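The genes of 9 DNA-binding factors of the T cell lineage, Tcf7, Lef1, Satb1, Tox, Bcl11b, Ets1, Ikzf1, Ikzf3 and Sox4, were compared in thymic natural killer T (NKT) cells of the mouse. The factors were chosen by name, and all 9 had a row among the 10755 genes of the table. The libraries came from 3 samples labelled UTX/JMJD3 DKO (2 female, 1 male) and 3 labelled WT (2 female, 1 male), all from mice of a mixed C57BL/6 and 129 background. UTX (gene Kdm6a) and JMJD3 (gene Kdm6b) are enzymes that take methyl groups off histone H3 at lysine 27, a mark of repressed chromatin. The comparison asks how NKT precursors differ when both are lost. Every sample was sorted from thymus as binding a CD1d tetramer loaded with PBS-57, a glycolipid seen by the NKT receptor, and as negative for surface CD44, CD24 and NK1.1, the stage the labels call P1. The sources used here do not give the alleles, any Cre driver, the ages or whether animals were pooled. Male and female libraries stem from different animals, but nothing says so of the 2 female libraries of a genotype, so part of the spread behind a p-value may be technical.

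These factors build and keep T cell identity in the thymus. TCF-1, the product of Tcf7, and its relative LEF-1 bind DNA through an HMG box, recruit beta-catenin or Groucho-type repressors, and are needed at several steps from the early progenitor to the mature T cell. SATB1 folds chromatin into loops around thymocyte genes, TOX is needed for CD4 lineage cells, and BCL11B fixes the commitment of progenitors to the T lineage. ETS1 acts beside RUNX factors at T cell enhancers, and Ikaros (Ikzf1) and Aiolos (Ikzf3) are zinc finger proteins that work with the NuRD remodelling complex. SOX4 is another HMG box factor of early thymocytes. NKT cells arise from CD4+CD8+ thymocytes, which make TCF-1, LEF-1, SATB1 and TOX in abundance.

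The unit was RPKM, in which reads are divided by gene length and by library size. The annotation behind the lengths is not given, so comparisons of level between genes are descriptions of RPKM. The smallest RPKM steps put the depth of DKO replicate 1 at 34.4 M reads and that of WT replicate 1 at 32.4 M reads, with the others at 6.45 M and 7.08 M in DKO and 5.04 M and 7.24 M in WT. Replicates 1 and 2 were female and replicate 3 was male. The table heads the replicate 1 columns Set1, and these were tied to the female samples numbered 1 by the sample titles, although both female DKO samples carry the number 2 in a second label. Same-numbered differences and the sex of the replicate 1 libraries rest on that assignment, while the genotypes do not, since the headings give them. The genes named in the DKO label do not check it, since 1 value per gene cannot tell a deleted exon from a retained one. Kdm6a was at RPKM 4.59 ± 0.937 in DKO and 4.62 ± 2.57 in WT, and Kdm6b at 1.66 ± 0.834 in DKO and 2.80 ± 1.05 in WT (SD, n = 3 each), with overlapping groups for both. T and NKT lineage markers were present in every library, with 11 of 11 listed genes in the table and summed levels of 2667 to 2902 in DKO and 2444 to 2664 in WT. Zbtb16, which encodes the NKT factor PLZF, was low, at 0.776 to 5.35 in DKO and 2.67 to 3.50 in WT. Among genes of the sort gate, Cd24a was at 0 to 21.6 in DKO and 4.50 to 11.2 in WT, Klrb1c (NK1.1) at 0.552 to 0.784 in DKO and 3.51 to 10.8 in WT, and Cd44 at 0.270 to 4.74 in DKO and 0.829 to 3.73 in WT.

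Replicate 1 of each genotype stood apart in genes of CD4+CD8+ thymocytes. Of 10 such markers 8 had a row, and Rag1 and Rag2 had none. Their summed RPKM was 481, 75.4 and 38.8 in DKO replicates 1 to 3 and 459, 49.0 and 36.0 in WT replicates 1 to 3. Cd8a was at 148 in DKO replicate 1 and 174 in WT replicate 1, and at most 2.77 in the other DKO libraries and 5.71 in the other WT libraries. Some other marker lists differed by genotype. Gamma-delta T cell markers (6 of 7 with a row) summed to 158 to 197 in DKO and 813 to 993 in WT, and NK and mature NKT1 markers (5 of 9) to 12.2 to 19.3 in DKO and 42.0 to 61.7 in WT. Of 9 myeloid markers 3 had a row, with overlapping sums of 89.7 to 135 in DKO and 126 to 181 in WT, mostly from Cst3. A gene has a row only if it is above RPKM 3 in 2 or more libraries. Cd163l1, Sox13, Klrb1c, Tbx21, Gzma, Cd68 and Fcer1g met that through WT alone, while the Tcrg constant genes met it in both genotypes. Genes kept through 1 genotype are selected towards a difference, so the sums that hold them are descriptions. Of the defining B cell and stromal genes only Ighm and Pecam1 had a row, and no erythroid gene did. The part of these cell types in the values of the 9 factors was not tested. Values without replicate 1 are given for each factor, but not for the genes of the lists.

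**Figure D1:**
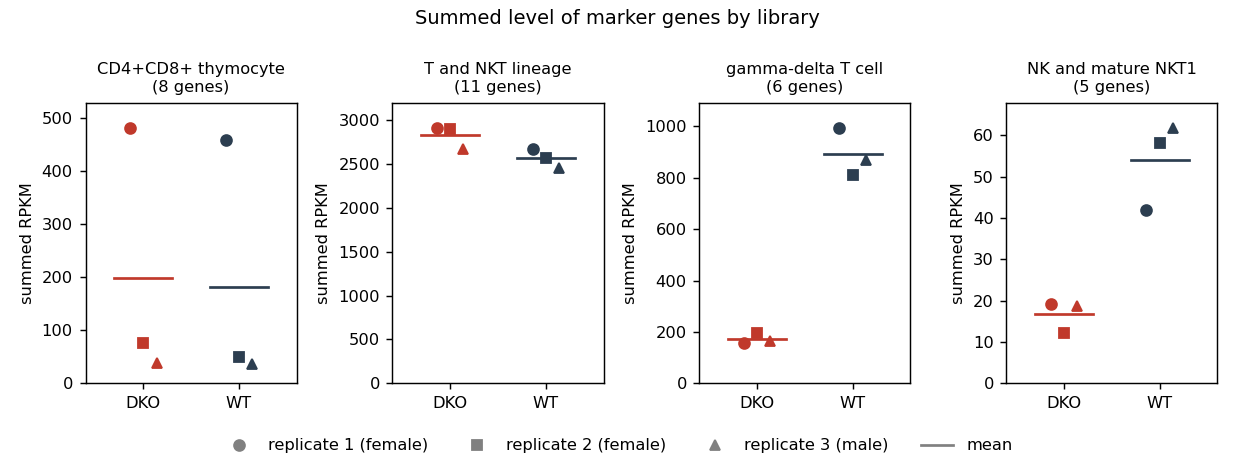
Summed RPKM of marker genes (y axis, linear) in 3 DKO and 3 WT libraries (x axis), with a symbol for each replicate and a line at the mean. CD4+CD8+ thymocyte markers sit at 481 and 459 in the DKO and WT replicate 1 libraries and at no more than 75.4 in the other 4, while gamma-delta and NK markers separate the genotypes. Some gamma-delta and NK markers have a row through WT alone.

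Satb1 stood out among the 9 factors, and Ikzf1 was the other whose genotypes did not overlap. Satb1 averaged 2.87-fold more in DKO than in WT and Ikzf1 1.64-fold more, both higher in DKO in all libraries. Lef1 and Ets1 had higher means in DKO with overlapping groups, Bcl11b likewise, and Tcf7, Tox and Sox4 had means within the spread of the libraries. Ikzf3, the closest relative of Ikzf1 here, had the lower mean in DKO. None of the 9 passed limma's test at a Benjamini-Hochberg adjusted p of 0.05 over all 10694 genes tested, a call that 0.0842% of all genes reached (0.00935% with DKO higher and 0.0748% with DKO lower). Fitted with voom on recovered reads, the table gave 0 calls. Satb1 came closest, at rank 20 of all genes by p, and passed in 2 alternative fits given with its values.

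By counts, 2 of 9 factors had genotypes that did not overlap with DKO higher, against 5.71% of all genes tested, and 0 of 9 with DKO lower, against 11.4% (17.2% in either direction). The same 2 were the only factors with an unadjusted p under 0.05, which 11% of all genes had (2.88% with DKO higher and 8.14% with DKO lower). The log2 change lay above 0 for 7 of the 9, against 42.9% of all genes, and below 0 for 2, against 57.1%. Its median was 0.53 for the factors and -0.11 for all genes tested. Scaling by median ratios brought the all-gene median to -0.02. The factors were chosen with earlier results of these data known, so these counts describe them and are not a test. In bulk RNA, fewer cells of a type and less RNA per cell cannot be told apart.

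**Figure D2:**
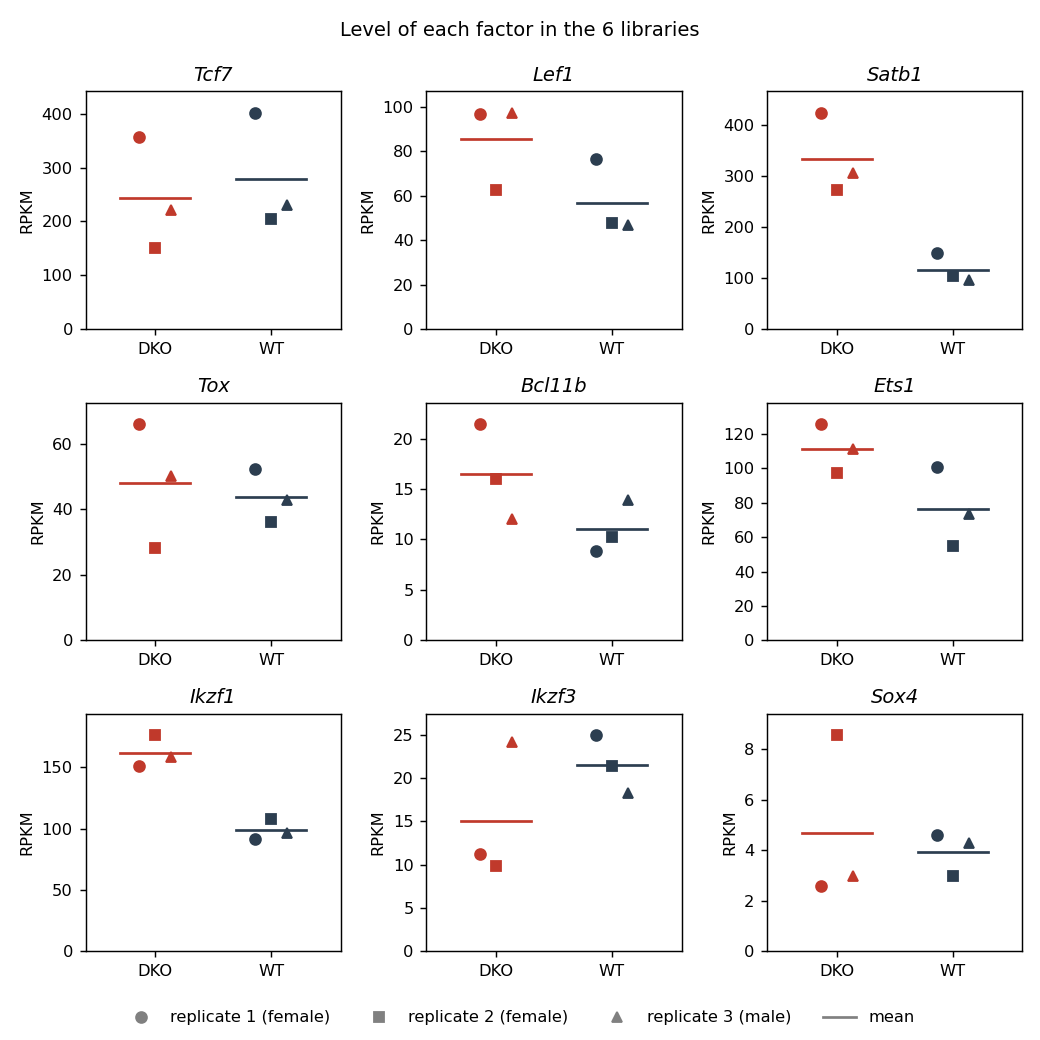
RPKM of each factor (y axis, linear from 0) in 3 DKO and 3 WT libraries (x axis), with a symbol for each replicate and a line at the group mean. Satb1 and Ikzf1 have DKO libraries wholly above WT, and Tcf7 is highest in the replicate 1 library of each genotype.

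Satb1 (ENSMUSG00000023927) encodes the chromatin organiser SATB1. It was at RPKM 424, 273 and 307 in DKO replicates 1 to 3 and 149, 104 and 97.2 in WT replicates 1 to 3. The lowest DKO library was above the highest WT library, and replicate 1 was the highest of its own genotype in both. Means were 335 ± 79.4 in DKO and 117 ± 28.0 in WT (SD, n = 3 each). The log2 change of 1.51 ± 0.25 (SE) had a limma adjusted p of 0.0692 and a 95% interval of 0.95 to 2.07. Depth was ample, with 6769 to 51162 reads in DKO and 1715 to 16869 in WT. The log2 change was as large without the replicate 1 pair, at 1.51 in replicate 1 alone and 1.52 in the other 4 libraries (adjusted p = 0.23). With array weights Satb1 passed at an adjusted limma p of 0.0174, and with the replicate number as a block at 0.0323, its same-numbered differences being 1.51, 1.38 and 1.65. Over all alternatives tried its adjusted p ranged from 0.0174 to 0.434.

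Ikaros, encoded by Ikzf1 (ENSMUSG00000018654), both activates and represses lymphoid genes and limits thymocyte growth. Its level was 151, 176 and 159 in the DKO libraries and 91.9, 108 and 96.8 in the WT libraries. The groups were tight and apart, with a spread of 7.93% of the mean in DKO and 8.42% in WT, the smallest of the 9 factors in each genotype. Means were 162 ± 12.9 in DKO and 98.98 ± 8.34 in WT (SD, n = 3 each), and limma gave 0.71 ± 0.20 on the log2 scale (SE, adjusted p = 0.242). In the 4 libraries without replicate 1 the log2 change was 0.70 (limma adjusted p = 0.41). The same-numbered differences were 0.71, 0.70 and 0.71 for replicates 1 to 3, close to each other in the deep and the shallow libraries. Replicate 1 was not the highest library for Ikzf1 in either genotype, unlike Satb1 and Tcf7.

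The DNA upstream of the starts of Satb1, Ikzf1 and Lef1 is shown because these 3 factors were higher in DKO in every same-numbered pair. Ets1 was too, and has no window in the promoter table used. The share of all genes higher in every such pair was not computed. Each window holds the 250 bases before the most upstream start that RefSeq lists, on build GRCm38.p6 and on the gene's strand. The deposited values were made on mm9, so these coordinates do not apply to the deposited table. Capitals mark the core CTTTG read by TCF and LEF factors or the core GGGAA read by Ikaros factors, searched on both strands. No 2 matches overlapped.
Satb1 (chr17:51833291-51833540, minus strand): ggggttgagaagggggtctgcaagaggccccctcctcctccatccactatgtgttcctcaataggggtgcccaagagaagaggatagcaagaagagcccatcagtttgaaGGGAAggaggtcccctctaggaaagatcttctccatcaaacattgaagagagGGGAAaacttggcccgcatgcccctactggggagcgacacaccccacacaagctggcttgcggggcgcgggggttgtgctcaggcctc
Ikzf1 (chr11:11685675-11685924, plus strand): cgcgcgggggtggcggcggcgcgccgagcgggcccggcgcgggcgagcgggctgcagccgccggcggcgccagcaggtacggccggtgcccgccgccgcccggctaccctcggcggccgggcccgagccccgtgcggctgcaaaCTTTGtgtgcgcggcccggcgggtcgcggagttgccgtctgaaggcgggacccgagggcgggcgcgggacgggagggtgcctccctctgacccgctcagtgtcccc
Lef1 (chr3:131110047-131110296, plus strand): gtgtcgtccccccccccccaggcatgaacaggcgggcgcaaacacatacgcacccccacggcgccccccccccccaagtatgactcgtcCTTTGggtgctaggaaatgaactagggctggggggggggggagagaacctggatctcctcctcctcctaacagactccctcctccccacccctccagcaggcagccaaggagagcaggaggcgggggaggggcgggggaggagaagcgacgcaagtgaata
The Satb1 window held 2 Ikaros cores, starting 140 and 88 bases before the start. In the Ikzf1 window lay 1 TCF and LEF core, 106 bases before the start, and in the Lef1 window 1 such core, 161 bases before it. Both cores are common. Searched over the same 250 bases upstream of each start, CTTTG was in 48.6% and GGGAA in 56.2% of all 32851 windows. The ETS core CGGAAG, in 13.6% of all windows, was in none of the 3. The windows were 58.0%, 82.0% and 66.4% G and C for Satb1, Ikzf1 and Lef1, against a median of 52.4%. The RefSeq table holds windows for 6 of the 9 factors, among them 5 for Satb1, 4 for Lef1 and 2 each for Ikzf1 and Tcf7, and the deposited value per gene does not separate them.

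Tcf7 (ENSMUSG00000000782), which encodes TCF-1, was the highest of the 9 factors in WT and second to Satb1 in DKO. It was at RPKM 357, 151 and 220.3 in DKO replicates 1 to 3 and 401, 205 and 230.2 in WT replicates 1 to 3. Replicate 1, the library rich in thymocyte markers, was highest in both genotypes and exceeded the lowest library 2.37-fold in DKO and 1.96-fold in WT. Means were 243 ± 105 in DKO and 279 ± 107 in WT (SD, n = 3 each), or -0.22 ± 0.35 on the log2 scale (SE, adjusted p = 0.84). The 95% interval ran from -0.999 to 0.55. Tcf7 was the 1 factor lower in DKO in all 3 same-numbered pairs, with log2 differences of -0.17, -0.44 and -0.06 for replicates 1 to 3. The share of all genes lower in all 3 pairs was not computed, so this is a description. The value was -0.25 in the 4 libraries without replicate 1, and the sign turned without WT replicate 1 (0.07), without DKO replicate 2 (0.07) and with array weights (0.00).

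LEF-1, from Lef1 (ENSMUSG00000027985), shares the DNA motif of TCF-1. Its level was 96.7, 62.6 and 97.1 in the DKO libraries and 76.4, 47.5 and 46.8 in the WT libraries. The groups overlapped only through DKO replicate 2, which lay below WT replicate 1. The log2 change was 0.59 ± 0.29 (SE, adjusted p = 0.51) and 0.72 in the 4 libraries without replicate 1, while replicate 1 alone gave 0.34.

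Ets1 (ENSMUSG00000032035), the ETS factor most used by T cells, was at 126, 97.4 and 111 in the DKO libraries and 101, 55.1 and 73.6 in the WT libraries. DKO replicate 2 and WT replicate 1 again made the overlap. The log2 change was 0.57 ± 0.27 (SE, adjusted p = 0.48), and 0.70 without replicate 1. Within same-numbered pairs Ets1 was higher in DKO by 0.31, 0.81 and 0.59 log2 units.

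Tox (ENSMUSG00000041272), another HMG box gene, was at 66.1, 28.1 and 50.1 in DKO and 52.5, 36.2 and 42.8 in WT. The DKO values enclosed all WT values, and the log2 change was 0.07 ± 0.34 (SE, adjusted p = 0.96), with an interval of -0.70 to 0.83. In both genotypes replicate 1 was highest and replicate 2 lowest, the order also seen for Tcf7. Without replicate 1 the value was -0.07.

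Bcl11b (ENSMUSG00000048251), the commitment factor, was at RPKM 21.4, 15.98 and 12.0 in DKO and 8.90, 10.2 and 13.9 in WT. Both female DKO libraries were above all WT libraries, and the male DKO library was below the male WT library. The log2 change was 0.53 ± 0.37 (SE, adjusted p = 0.633), 1.18 in replicate 1 alone and 0.20 in the other 4 libraries.

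Aiolos is encoded by Ikzf3 (ENSMUSG00000018168), which turns on later than Ikaros in T cell development. Its level was 11.2, 9.86 and 24.2 in DKO replicates 1 to 3 and 24.9, 21.4 and 18.3 in WT replicates 1 to 3. The 2 female DKO libraries lay below all WT libraries, and the male DKO library lay inside the WT range. The log2 change was -0.58 ± 0.39 (SE, adjusted p = 0.622), -0.96 without the male DKO library (adjusted p = 0.313) and -0.33 in the 4 libraries without replicate 1. In females the difference was -1.07 and in the male pair 0.39. A fit of the interaction of sex and genotype, added after seeing the values, gave an adjusted limma p of 0.9997 for both Ikzf3 (unadjusted 0.0924) and Bcl11b (unadjusted 0.221). With 1 male per genotype and 2 residual degrees of freedom, this fit called 0 of all genes at an adjusted p of 0.05 and 293 at an unadjusted p of 0.05, so sex and single-library spread cannot be told apart.

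Sox4 (ENSMUSG00000076431), whose product acts in early thymocyte survival and growth, was the lowest factor in both genotypes. It was at 2.56, 8.54 and 2.97 in DKO and 4.58, 2.97 and 4.26 in WT. DKO replicate 2 was the highest of the 6 libraries and the other DKO values lay close to the lowest WT value. Only DKO replicate 2 of the DKO libraries exceeded the table's floor of RPKM 3, so Sox4 has its row through 2 WT libraries. Reads numbered 92 to 423 in DKO and 103 to 711 in WT. The log2 change was 0.07 ± 0.53 (SE, adjusted p = 0.971), with the widest interval of the 9, from -1.12 to 1.27, and 0.43 without replicate 1.

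**Figure D3:**
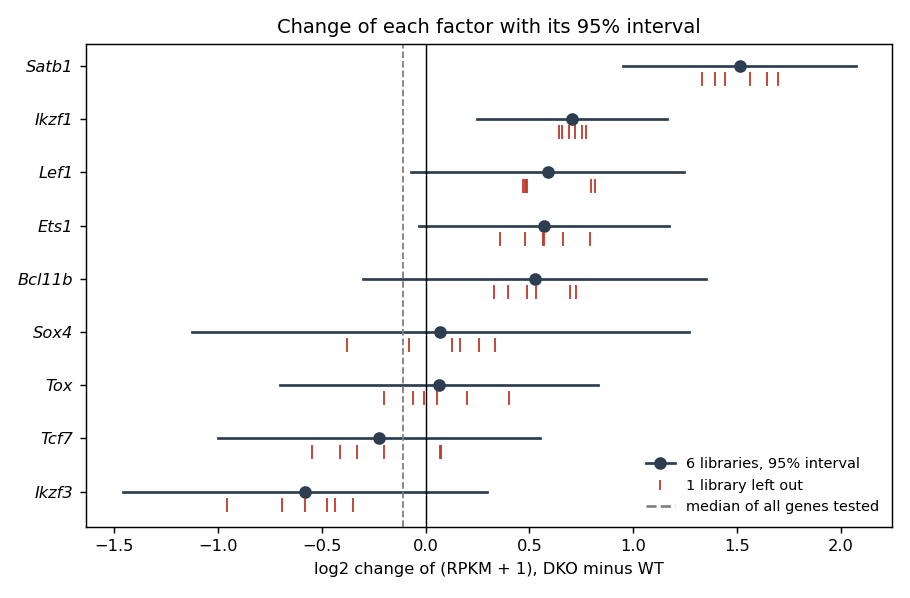
Log2 change of RPKM + 1 (x axis, DKO minus WT) for each factor (y axis, highest at the top), with the 95% interval from 6 libraries as a bar and the values with 1 library left out as ticks. The intervals of Satb1 and Ikzf1 lie above 0 before adjustment over all genes, and the ticks of Tcf7, Tox and Sox4 fall on both sides of 0.

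Ordering the factors by mean RPKM gave a different leader in each genotype, a description that rests on the gene lengths used. In DKO the means ran from Satb1 (335) through Tcf7 (243), Ikzf1 (162), Ets1 (111), Lef1 (85.5), Tox (48.1), Bcl11b (16.5) and Ikzf3 (15.1) to Sox4 (4.69). In WT they ran from Tcf7 (279) through Satb1 (117), Ikzf1 (98.98), Ets1 (76.6), Lef1 (56.9), Tox (43.8), Ikzf3 (21.5) and Bcl11b (11.01) to Sox4 (3.94), all in RPKM. In DKO the neighbours Satb1 and Tcf7, Tcf7 and Ikzf1, Lef1 and Tox, and Bcl11b and Ikzf3 had ranges that overlapped. In WT the overlapping neighbours were Satb1 and Ikzf1, Ikzf1 and Ets1, Ets1 and Lef1, and Lef1 and Tox, while Tcf7 was apart from Satb1 and Ikzf3 from Bcl11b. Against all genes of a library, Satb1 stood at the 95.4 to 96.9 percentile in DKO and the 88.0 to 92.2 percentile in WT. Tcf7 stood at the 92.6 to 96.4 percentile in DKO and the 93.5 to 97.1 percentile in WT.

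Ratios of factors within a library do not move with library scaling, and 3 were compared. Satb1 over Tcf7 was 1.19, 1.81 and 1.39 in DKO replicates 1 to 3 and 0.371, 0.508 and 0.422 in WT replicates 1 to 3. In RPKM, Satb1 thus exceeded Tcf7 in all 3 DKO libraries and lay below it in all 3 WT libraries, replicate 1 included. The ratio was 3.35-fold higher in DKO (log2 difference 1.75, exact two-sided permutation p = 0.1, the smallest that 3 libraries against 3 can give), and 1.68 to 1.78 log2 units higher in replicate 1 alone and in the other 4 libraries.

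The ratio of the related HMG box factors was also higher in DKO. Lef1 over Tcf7 was 0.271, 0.415 and 0.441 in DKO and 0.190, 0.231 and 0.203 in WT, with no overlap. Its log2 difference was 0.82 (exact permutation p = 0.1), 0.51 in replicate 1 alone and 0.98 in the other 4 libraries. In the Ikaros family the ratio ran the other way, with Ikzf3 over Ikzf1 at 0.0742, 0.0559 and 0.152 in DKO and 0.271, 0.198 and 0.189 in WT. That log2 difference was -1.33 (exact permutation p = 0.1) and the groups did not overlap, although Ikzf3 by itself did. After adjustment over the 3 ratios each p remained 0.1, so no ratio could reach 0.05 in this design. The ratios were formed from factors chosen with earlier results known, and no share over other gene pairs was computed. Satb1 and Ikzf1 did not overlap by themselves, so the ratios that hold them in part restate those changes.

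**Figure D4:**
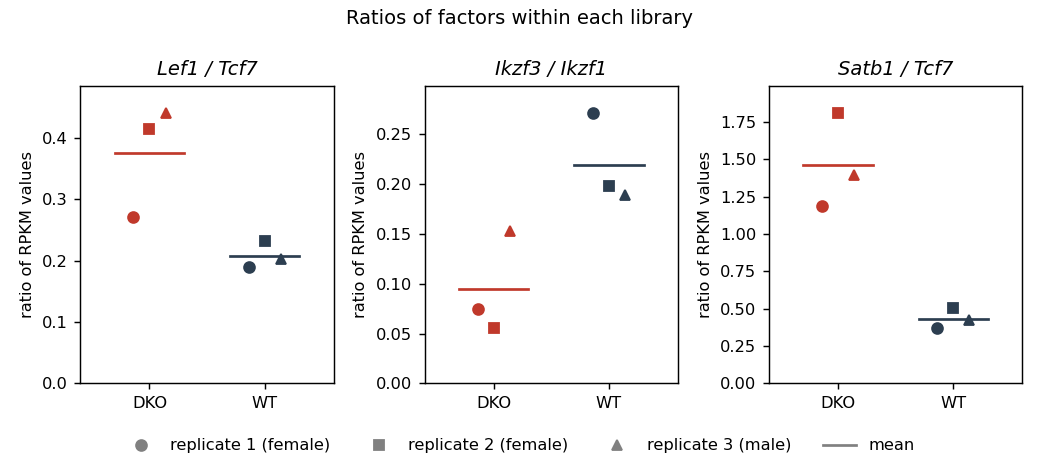
Ratio of 2 factors' RPKM values within each library (y axis, linear from 0) for 3 DKO and 3 WT libraries (x axis), with a symbol for each replicate and a line at the mean. None of the 3 ratios overlaps between genotypes, and Satb1 over Tcf7 is above 1 in the DKO libraries and below 1 in the WT libraries. No share over other gene pairs was computed.

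Patterns over the 6 libraries were compared by the root mean square difference of log2 values centred on each gene's mean, where 0 is an identical pattern. Among the factors, Lef1 and Ets1 were the closest pair (0.18 log2 units), followed by Tcf7 and Tox (0.24), while the factor nearest to Satb1 was Lef1 (0.49). Among all genes tested the nearest to Ikzf1 was Trac (0.05), the alpha constant gene of the T cell receptor, at RPKM 811 in DKO and 519 in WT on average. Rgp1 and Xlr4a came next for Ikzf1 (0.07 and 0.08). The nearest to Satb1 were Dzip1, Cbarp and Rbm12b2 (0.21 to 0.22), and the nearest to Tcf7 were Top1, the gene of DNA topoisomerase I (0.04), 2810004N23Rik and Cdk11b (both 0.12). For the others the nearest genes were Rmc1 for Lef1 (0.09), Mir692-2a for Ets1 (0.10), Cryzl1 for Tox (0.07), Sugp2 for Bcl11b (0.06), Ndufaf4 for Ikzf3 (0.10) and Fhit for Sox4 (0.11). Picked as the nearest of 10694 genes over 6 libraries, these names are a description.

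Relatives and partners of the factors gave 0 calls at an adjusted limma p of 0.05 in any of 9 lists, some of which share genes. At an unadjusted p of 0.05, which 2.88% of all genes had with DKO higher and 8.14% with DKO lower, the TCF-1 and LEF-1 linked genes had 6 of 17 higher and 0 lower. The BCL11B and TOX linked genes had 2 of 13 in each direction, the SATB1 linked genes 1 of 10 in each, the early T lineage factors 2 of 15 lower, the NuRD subunits 1 of 12 lower and the SATB, TOX and SOX relatives 1 of 3 higher and 2 of 3 lower. The TCF, Ikaros and ETS family lists had 0. The lists were chosen with earlier results of these data known, so their counts and medians are descriptions and not tests. Lists hold only genes above RPKM 3 in 2 or more libraries. Sox13, Tox2, Gsk3b, Lmo2, Runx3, Fcer1g, Cd8a, Zfpm1 and Zbtb16 reached that floor through WT alone, and Apc and Tcf12 through DKO alone. A gene that reaches the floor through 1 genotype is selected towards a difference, so their differences and the counts that hold them are descriptions. Of the TCF family and beta-catenin partners 11 of 23 listed genes had a row, 5 above and 6 below 0, with a median log2 change of -0.09. For this and the lists that follow, 42.9% of all genes tested lay above 0 and 57.1% below. Over all genes 5.71% did not overlap with DKO higher and 11.4% with DKO lower, beside 1 gene in each direction here. Ctnnb1, the gene of beta-catenin, was at 63.5 ± 9.23 in DKO and 68.4 ± 15.8 in WT (SD, n = 3 each). Aes, a short Groucho family member, was at 174, 191 and 235 in DKO and 241, 273 and 276 in WT, without overlap (log2 change -0.40, adjusted p = 0.51). The Groucho gene Tle4 was at 39.0, 28.8 and 19.2 in DKO and 20.5, 19.5 and 15.7 in WT, with overlap. Csnk1a1, a kinase that marks beta-catenin for destruction, was at 67.9 ± 4.04 in DKO and 52.0 ± 4.08 in WT, and Gsk3b, another such kinase, had a log2 change of -1.55 (adjusted p = 0.513) with overlapping groups.

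Of 9 relatives of SATB1, TOX and SOX4 listed, 3 had a row and the other 6 had none. Sox13, a gamma-delta lineage factor, was at 1.02, 0.0845 and 3.57 in DKO and 17.7, 6.77 and 17.8 in WT (log2 change -2.70, adjusted p = 0.171). Tox2 was at 0.572, 0.232 and 0.700 in DKO and 4.10, 4.93 and 4.56 in WT (log2 change -1.89, adjusted p = 0.23). Tox4 was at 15.9994, 11.1 and 13.2 in DKO and 4.59, 8.59 and 5.21 in WT (log2 change 1.04, adjusted p = 0.366). Sox13 is also on the gamma-delta marker list, which differed as a whole between genotypes. Of the Ikaros and BCL11 relatives only Ikzf5 had a row, at 2.94 ± 1.06 in DKO and 2.37 ± 0.793 in WT.

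Of 10 ETS family genes tested, 4 lay above and 6 below 0, with a median of -0.21. Elf2 was at 17.1 ± 1.47 in DKO and 12.8 ± 0.852 in WT (SD, n = 3 each) and was the only family member without overlap (adjusted p = 0.679), while Elf4, Etv6 and Etv3 overlapped. NuRD subunits, partners of Ikaros and BCL11B, lay below 0 in 10 of 12, against 57.1% of all genes, with a median of -0.32. Rbbp7, a histone-binding subunit, was at 88.0, 102 and 108 in DKO and 153, 145 and 157 in WT (log2 change -0.61, adjusted p = 0.292). It was the only subunit without overlap. Over all genes 5.71% did not overlap with DKO higher, like Elf2, and 11.4% with DKO lower, like Rbbp7. The remodeller Chd4 was at 35.3 ± 4.88 in DKO and 45.9 ± 8.70 in WT, Hdac1, a deacetylase, at 68.4 ± 20.4 in DKO and 85.4 ± 4.64 in WT, and Gatad2a at 20.1 ± 4.62 in DKO and 14.4 ± 3.22 in WT.

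Other early T lineage factors were below 0 in 10 of 15 tested, against 57.1% of all genes, with a median of -0.47. Hhex, a homeobox factor of early progenitors, was at 4.40, 7.74 and 1.14 in DKO and 9.42, 24.2 and 16.4 in WT (log2 change -1.83, adjusted p = 0.275). Lmo2, a progenitor gene that T cells switch off, was at 1.69 ± 0.899 in DKO and 4.85 ± 0.482 in WT (adjusted p = 0.445). On the other side Tcf12, encoding the E protein HEB, was at 17.6, 5.74 and 11.8 in DKO and 8.12, 2.88 and 2.58 in WT, with overlap (log2 change 1.22, adjusted p = 0.453). Zbtb7b, the gene of the CD4 lineage factor ThPOK, was at 22.6, 24.4 and 13.4 in DKO and 8.91, 12.6 and 16.8 in WT, also with overlap.

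Genes that the literature links to TCF-1 and LEF-1 in T cells lay above 0 in 11 of 17 tested, with a median of 0.26. Genotypes did not overlap in 5 with DKO higher and in 1 with DKO lower, against 5.71% and 11.4% of all genes. As the list was chosen with earlier results known, this difference in share is not a test. Cd5 was at 261, 295 and 272 in DKO and 152, 153 and 182 in WT (adjusted p = 0.186), and Cd6 at 182, 161 and 175 in DKO and 83.8, 111 and 104 in WT (adjusted p = 0.212). Both encode surface receptors that tune receptor signals. Il7r, the IL-7 receptor gene, was at 345, 219 and 135 in DKO and 168, 85.6 and 52.6 in WT, highest in replicate 1 of each genotype. Ccr7, a chemokine receptor gene of naive T cells, was at 181 ± 73.9 in DKO and 156 ± 81.7 in WT, with overlap. Id3, whose product blocks E proteins, was the 1 gene lower without overlap, at 582 ± 132 in DKO and 727 ± 18.5 in WT (adjusted p = 0.567).

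The genes linked to SATB1 went both ways, with 6 above and 4 below 0 among 10 tested and a median of 0.19. Genotypes did not overlap in 1 with DKO higher and in 3 with DKO lower, against 5.71% and 11.4% of all genes. Runx3, the CD8 and cytotoxic lineage factor, was at 0.723, 1.89 and 3.11 in DKO and 14.2, 6.60 and 11.01 in WT (log2 change -2.03, adjusted p = 0.205). Bcl2, a survival gene, was at 8.62 ± 0.593 in DKO and 4.90 ± 0.453 in WT (SD, n = 3 each, adjusted p = 0.546). Myc was at 31.4 ± 9.87 in DKO and 48.8 ± 4.39 in WT, and Pdcd1, the PD-1 gene, at 111 ± 6.33 in DKO and 145 ± 16.7 in WT, both without overlap. Cd8b1 was at 164, 10.4 and 4.49 in DKO and 116, 6.44 and 1.54 in WT, and like Cd8a was highest in replicate 1 of each genotype.

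Among genes linked to BCL11B and TOX, 6 of 13 lay above 0 and 7 below, with a median of -0.06. On this list 3 did not overlap with DKO higher and 2 with DKO lower, against 5.71% and 11.4% of all genes. Fcer1g and Il2rb belong to the NK programme, and any link of their values to Bcl11b, whose groups overlapped, was not tested. Fcer1g, a signalling chain of NK and myeloid receptors, was at 0.096 in DKO replicate 1, listed at 0 in the other DKO libraries, and at 2.90, 12.0 and 11.8 in WT (adjusted p = 0.126). Il2rb was at 2.89, 7.50 and 10.7 in DKO and 15.8, 23.6 and 22.9 in WT (adjusted p = 0.257). Neither overlapped, and both are also on the myeloid or NK marker lists above. Among CD3 genes, Cd3g was at 672 ± 98.7 in DKO and 564 ± 17.4 in WT without overlap, and Cd3d and Cd3e overlapped. Cd3e averaged 7.83 in DKO and 8.22 in WT, far below Cd3d (384 in DKO and 353 in WT), and the cause was not tested.

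**Figure D5:**
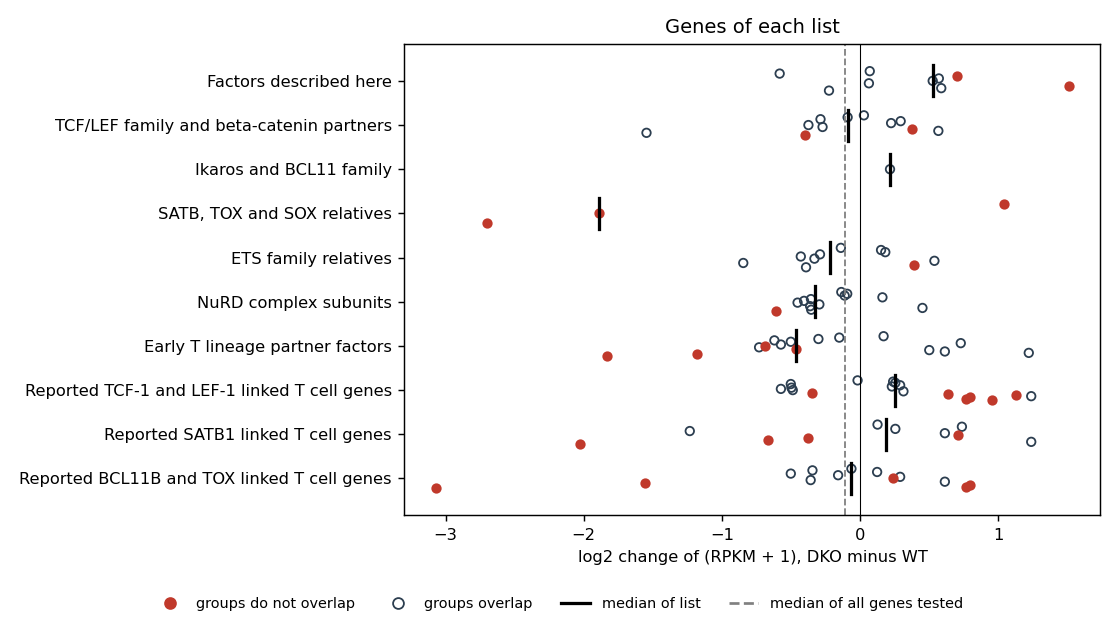
Log2 change of RPKM + 1 (x axis, DKO minus WT) of every tested gene in each list (y axis), with filled points where genotypes do not overlap, a bar at the list's median and a dashed line at the median of all genes (-0.11). The 9 factors have the highest median (0.53), and the lists of relatives and partners have medians from -1.89 (3 genes) to 0.26.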

How the data were processed

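RNA from 3 DKO and 3 WT sorted thymic NKT samples was measured. Per the labels' protocols, polyadenylated RNA was prepared by a published protocol and sequenced with an indexed kit from Illumina. Bowtie and mm9 are named per the submitters' processing notes. The sources used here give no versions, settings, annotation, strand or counter. The authors deposited RPKM values per gene and library, with a gene length in bases, for 10772 rows. In the file, all rows had RPKM above 3 in 2 or more libraries, so lower genes have no row.

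Rows sharing a current GENCODE M21 symbol were reduced to the highest mean (10755 genes), and names were matched for 9918 rows. RPKM times length gave whole reads within 0.05 for 99.6% to 100.0% of values per library. These reads, which after amplification are not independent molecules, gave the depths and served for voom as an alternative only, since the unit is RPKM. The 10694 genes reaching RPKM 1 in 3 or more libraries entered limma 3.58.1 (R 4.3.3) as log2(RPKM + 1), with a mean-variance trend and Benjamini-Hochberg adjustment. Fold changes on that scale understate those of low genes. Ratios were tested by exact permutation in scipy 1.17.1. The script was checked on simulated data. There the limma fit recovered 7.33% of 2-fold and 30.7% of 4-fold changes at an adjusted p of 0.05. The simulation added read sampling to the libraries' own spread, so recovery in the real data may differ. A factor that did not pass is not thereby shown to be unchanged.

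Named genes were the 9 factors, Kdm6a and Kdm6b, the 4 of smallest p on each list and the 3 nearest patterns per factor. Some genes under this rule are not reported here. Others (Ctnnb1, Id3, Ccr7, Bcl2, Cd8b1, the CD3 genes and markers) were chosen after their values were seen. Factors and lists were chosen with earlier results of these data known. Sequences are from RefSeq.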

Additional observations from a re-analysis of the deposited data

How the results depend on the processing

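Each change was recomputed under 19 alternatives per factor (18 for Sox4, which a mean RPKM filter of 10 removed) and 9 per ratio. Satb1, Ikzf1, Lef1, Ets1, Bcl11b, Ikzf3 and the 3 ratios kept their direction in all of them. Part of this was fixed in advance. A change of filter, variance trend, block or sex covariate left the log2 change as it was. Where groups do not overlap, as for Satb1, Ikzf1 and the ratios, leaving out libraries could not turn the sign. Replicate 3 alone was not among the alternatives, and there Bcl11b (-0.20) and Ikzf3 (0.39) ran the other way. Satb1 passed with array weights (1.64, adjusted p = 0.0174) and with the replicate block (1.51, adjusted p = 0.0323), and no other factor passed under any. Tcf7 turned to 0.00137 with array weights, Tox to -0.0655 in the 4 shallower libraries, and Sox4 to -0.32 with voom and -0.65 in replicate 1 alone. Leaving out 1 library gave -0.547 to 0.0737 for Tcf7, -0.20 to 0.40 for Tox and -0.38 to 0.33 for Sox4. The number of genes called was 9, and became 14 with a mean RPKM filter of 10, 24 with array weights, 0 with voom (1677 at an unadjusted p of 0.05) and 1 in the 4 shallower libraries. Without 1 library it was 0 to 13, namely 2 without WT replicate 1 and 0 without WT replicate 2 or 3 (809 and 738 at an unadjusted p of 0.05), and the cause was not tested. Deviations of same-numbered libraries correlated at 0.226, 0.146 and 0.0752 for replicates 1 to 3, each library best with its own number. Replicate 1 columns share the name Set1 and the depth, and replicate 3 is male in each genotype, but no label says what a shared number stands for, so the block was not the main design. The replicate block called 9 genes. Reads limit Sox4 most, with 92 in the thinnest library.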
